A study of Mus musculus with 9 samples.

Results

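Genes of GABAergic interneurons, the inhibitory neurons that release the transmitter GABA, were followed in RNA from mouse brain. The group holds 10 genes, chosen by symbol: Gad1 and Gad2, the enzymes that make GABA from glutamate; Slc32a1, the transporter that loads GABA into synaptic vesicles; the peptide genes Sst, Npy, Vip and Cck; and Pvalb, Calb1 and Calb2, which encode calcium-binding proteins. All 10 were found among the 23798 genes of the table, and all 10 passed the filter on low values. The study had 9 libraries in 3 groups of 3: wild-type (WT) mice on placebo, mice of the genotype labelled TG on placebo, and TG mice treated with NM-101, an agent known here by its code name. Both TG groups carry the TG genotype, so NM-101 was compared within TG only. The sources used here do not name the transgene or its promoter, nor the age of the mice, the dose or the time of treatment. The labels name the cell type as oligodendrocyte, yet the WT libraries held 28964, 40661 and 34900 counts of the neuronal gene Snap25 beside 43478, 47667 and 65591 of the myelin gene Mbp. The labels do not say whether replicates came from separate animals, so a p-value measures the spread between these libraries, which may be technical.

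Interneurons are a minority of cortical and hippocampal neurons and are sorted into classes by the proteins they make. Parvalbumin (Pvalb) cells are fast-spiking and inhibit cell bodies, somatostatin (Sst) cells inhibit dendrites, and cells with vasoactive intestinal peptide (Vip) mainly inhibit other interneurons. Neuropeptide Y (Npy) overlaps with the somatostatin class and with neurogliaform cells. Cholecystokinin (Cck) marks a class of basket cells and is also made by many excitatory cells of the cortex. Calbindin (Calb1) and calretinin (Calb2) are found in some interneurons and in other neurons too. In bulk RNA, fewer cells of a type and less RNA per cell cannot be told apart.

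The WT columns hold counts, with totals from 10612290 to 14041951 per library. The TG columns hold log2 values that are read here as log2(FPKM + 1), where FPKM is a fragment count scaled by library size and transcript length. Several libraries stood apart before any interneuron gene was considered. TG placebo replicate 1 and WT placebo replicate 1 were high in genes of choroid plexus and ependyma, with list medians 2.76 and 1.72 above the mean of the 6 TG and of the 3 WT libraries on the log2 scale. The same libraries were high in thalamic and midbrain markers, at 1.06 and 0.77. TG placebo replicates 2 and 3 were high in RNAs retained in the nucleus, at 1.18 and 1.66, and TG placebo replicate 1 was low in them, at -1.71. The labels give no batch that separates these libraries.

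The Sst, Vip, Cck and Npy values varied together across TG libraries, with TG placebo replicate 1 the lowest library for each. For that reason the stretches upstream of these 4 peptide genes are shown, a choice made after those values were seen. Each holds the 250 bases before the RefSeq start site (GRCm38.p6), 5′ to 3′ on the gene's own strand, with matches on either strand to TGACG and TATAAA in capitals. TGACG is the core of the cAMP response element TGACGTCA, a site bound by the factor CREB, and is contained in it. TATAAA is the motif of a TATA box, matched here at any position in the window. The Sst window is chr16:23890845-23891094 (minus strand), that of Vip chr10:5638968-5639217 (plus strand), that of Cck chr9:121495695-121495944 (minus strand) and that of Npy chr6:49822460-49822709 (plus strand).
Sst: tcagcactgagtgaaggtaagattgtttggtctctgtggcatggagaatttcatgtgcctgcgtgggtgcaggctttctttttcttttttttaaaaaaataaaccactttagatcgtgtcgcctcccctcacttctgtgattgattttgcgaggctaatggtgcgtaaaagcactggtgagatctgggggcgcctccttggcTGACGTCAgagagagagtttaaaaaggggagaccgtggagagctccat
Vip: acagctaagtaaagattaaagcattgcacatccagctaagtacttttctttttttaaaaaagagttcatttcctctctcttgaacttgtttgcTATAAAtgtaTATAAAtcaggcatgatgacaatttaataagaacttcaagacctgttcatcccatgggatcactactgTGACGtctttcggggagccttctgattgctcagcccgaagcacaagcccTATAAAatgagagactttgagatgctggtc
Cck: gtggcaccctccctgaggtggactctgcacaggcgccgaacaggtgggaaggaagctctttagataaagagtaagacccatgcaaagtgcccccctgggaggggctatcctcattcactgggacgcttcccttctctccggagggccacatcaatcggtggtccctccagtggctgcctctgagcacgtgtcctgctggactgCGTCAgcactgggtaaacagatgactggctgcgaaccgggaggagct
Npy: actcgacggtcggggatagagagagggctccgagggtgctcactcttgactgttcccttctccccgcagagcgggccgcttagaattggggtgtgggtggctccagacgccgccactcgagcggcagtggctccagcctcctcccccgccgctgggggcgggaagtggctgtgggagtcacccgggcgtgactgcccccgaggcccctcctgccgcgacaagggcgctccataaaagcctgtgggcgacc

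In Sst the full element TGACGTCA lay from -48 to -41 relative to the start site. It was present in 1 of the 9 windows of the 8 members matched in the RefSeq table, and in 1.55% of 32851 windows of the same length. The core TGACG also stood in Vip from -79 to -75 and, read on the opposite strand, in Cck from -47 to -43. It lay in Gad2 as well, so 4 of 9 windows held it, against 17.8% of all windows. Vip had 3 matches to TATAAA, from -157 to -152, from -147 to -142 and from -30 to -25. Gad1 had 1, read on the opposite strand, from -141 to -136. Of all windows, 12.4% held any such match. No window held TAATTA, a core bound by homeodomain factors, which stood in 4.84% of all. Guanine and cytosine made up 38.4% of the Vip window, 47.2% of that of Sst, 60.0% of that of Cck and 69.2% of that of Npy, against a median of 52.4% over all windows. The Npy window held no match to TGACG or TATAAA. The matches describe the letters only, and a link between them and the levels was not tested. Calb1 and Calb2 were not in the sequence table.

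In the WT libraries every member was counted well above 0. The GABA-synthesizing enzyme Gad1 had 3031, 4460 and 3417 counts in WT replicates 1, 2 and 3, and its partner Gad2 had 1800, 2111 and 1563. The vesicular transporter Slc32a1 had 762, 769 and 590 counts. Scaled to the library total (CPM), Gad1 stood at 298 ± 17.3, Gad2 at 151 ± 18.4 and Slc32a1 at 58.9 ± 11.4 (SD, n = 3). The coefficient of variation (CV) over libraries was 5.81% for Gad1 and 19.4% for Slc32a1, against 1.66% and 3.76% from counting alone, so both varied more between libraries than counting does. Intervals and counting errors of this kind cover counting error only.

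Among the peptide genes in WT, Cck had 2703, 3782 and 3405 counts and Sst had 1917, 2662 and 2287. Npy had 323, 427 and 372 counts. Vip had 275, 490 and 269. Npy was the steadiest member, with a CV of 2.20% of its CPM, below the 5.17% of counting alone. Vip, with a CV of 22.5% against 5.39% from counting, was among the least steady. The calcium-binding protein genes split in the same way: Calb1 (1853, 2615 and 2082 counts) had a CV of 3.44%, Pvalb (610, 994 and 607 counts) one of 16.4%, and Calb2 (327, 769 and 604 counts) one of 28.4%. Calb2 was the most variable of the 10 in WT, and its lowest value came from replicate 1, at 30.8 CPM against 54.8 and 51.3.

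Levels of different genes were compared per length, as log2(RPKM + 1) rebuilt from the counts, RPKM being CPM divided by transcript length in kilobases. Cck was highest in WT at 8.62 ± 0.09, followed by Sst at 8.03 ± 0.05, Gad1 at 6.49 ± 0.08 and Pvalb at 5.99 ± 0.23 (SD, n = 3). The library values of Cck, Sst and Gad1 did not overlap those of the next gene. Pvalb overlapped Npy, which stood at 5.79 ± 0.03. Calb1 followed at 5.44 ± 0.05, and Calb2 (5.00 ± 0.44), Gad2 (4.76 ± 0.17), Slc32a1 (4.45 ± 0.26) and Vip (4.24 ± 0.30) formed a run in which each overlapped the next. QuantSeq libraries read the 3' end of transcripts, so scaling by length lowers long transcripts such as Gad2 (5744 bases) relative to short ones such as Npy (566 bases). The order changes without that scaling. By mean CPM, Gad1 (298) was highest in WT, followed by Cck (271), Sst (188), Calb1 (179) and Gad2 (151). Pvalb (59.9) and Npy (30.8) were then below Gad2.

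**Figure D1:**
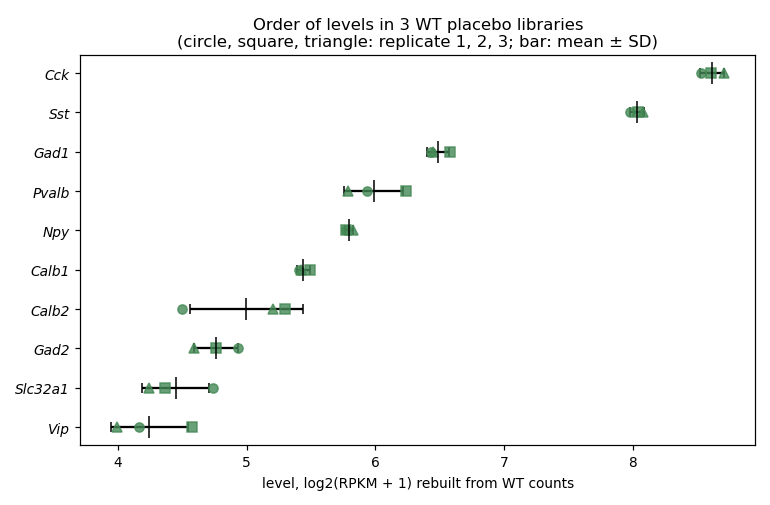
Level of each member in the 3 WT placebo libraries, as log2(RPKM + 1) on the x axis, with the genes in order of their mean. Points are libraries (circle, square and triangle for replicates 1, 2 and 3) and bars are mean ± SD. On this scale per length, Cck at 8.62 and Sst at 8.03 stand clear of the rest, and Calb2 has the widest spread.

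The interneuron genes were set against markers of regions that could also supply them. Pvalb and Calb1 are also made by Purkinje cells of the cerebellum. Of the 9 listed cerebellar markers, Pvalb included, 6 passed the filter on low values in TG. In WT, Gabra6 had 0, 1 and 0 counts, Pcp2 had 0, 2 and 2 and Cbln3 had 4, 2 and 10, while Neurod1 had 248, 293 and 341, Zic2 had 201, 149 and 130 and Cbln1 had 139, 326 and 62. Chat, the enzyme that marks cholinergic neurons, had 0 counts in each WT library, as did Lhx8, a factor of the same cells. Of the 12 listed markers of striatal projection neurons, which are GABAergic too, 9 passed the filter. The receptor genes Drd1 (27, 83 and 41 counts) and Drd2 (9, 12 and 11) were low in WT, whereas Ppp1r1b had 882, 847 and 702 counts and Bcl11b, also made in cortex, 1617, 1865 and 1786. The part of cerebellum or striatum in the members' levels was not tested. Slc17a7, the vesicular glutamate transporter of cortical and hippocampal excitatory cells, had 12783, 14629 and 15123. Lhx6, a factor of Pvalb and Sst interneurons, had 201, 362 and 264 counts.

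Within the TG genotype, 0 of the 10 members passed the test between NM-101 and placebo (limma, Benjamini-Hochberg adjusted p under 0.05), where 0.134% of 12699 genes did (0.102% higher and 0.0315% lower). With p under 0.05 before adjustment there were 4 members, Gad2, Pvalb and Npy on the higher side and Calb2 on the lower, against 14.8% of all genes (10.7% higher and 4.17% lower). The libraries of the 2 groups did not overlap for 3 members, 2 higher and 1 lower, against 19.6% of all genes (13.6% higher and 5.98% lower). The median difference over the members was 0.22, with 8 of 10 above 0, beside a median of 0.03 and 55.5% above 0 over all genes tested. Markers of excitatory neurons of cortex and hippocampus had a like median, 0.21, with 8 of 10 above 0, and the pan-neuronal list one of -0.05, with 6 of 12 above 0. The members' count rested on 1 library: without TG placebo replicate 1 only 4 of 10 were above 0, and the median was -0.03.

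Of the GABA synthesis and transport genes, Gad1 stood at 6.16, 6.48 and 6.44 in TG placebo replicates 1, 2 and 3, and at 6.35, 6.38 and 6.49 under NM-101. The groups overlapped, with a difference of 0.04 ± 0.11 (SE; 95% interval -0.20 to 0.29; limma adjusted p = 0.87). Gad2 was at 4.48, 4.63 and 4.50 under placebo and at 4.74, 4.72 and 4.83 under NM-101. All 3 NM-101 values lay above all placebo values, and the difference of 0.23 ± 0.09 (SE) had a limma adjusted p of 0.312. Slc32a1 went the other way, from 4.59, 4.75 and 4.51 to 4.34, 4.39 and 4.49. Its groups did not overlap either, and the difference of -0.21 ± 0.10 (SE) had an adjusted p of 0.378 in the same limma fit. The loci are chr2:70561303-70602014 for Gad1, chr2:22621015-22693877 for Gad2 and chr2:158607260-158615747 for Slc32a1 (GRCm38).

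**Figure D2:**
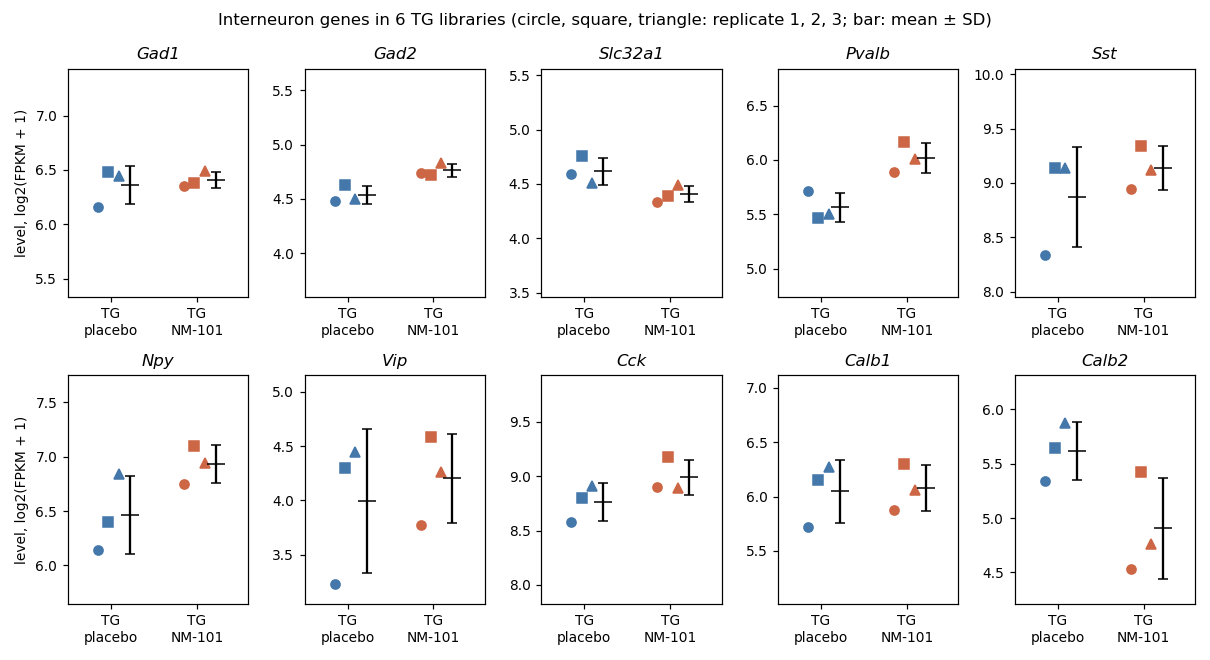
Level of each member in the 6 TG libraries, as log2(FPKM + 1), with each panel spanning 2.1 log2 units around the gene's mean. Circles, squares and triangles are replicates 1, 2 and 3 and bars are mean ± SD; the groups are apart for Gad2, Pvalb and Slc32a1, and TG placebo replicate 1 is the lowest circle for Sst, Vip, Npy, Cck, Calb1, Gad1 and Gad2.

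The calcium-binding protein genes held both the smallest p-value and the largest difference of the group. Pvalb was at 5.71, 5.47 and 5.50 under placebo and at 5.89, 6.16 and 6.00 under NM-101. Each NM-101 library was above each placebo library, with a difference of 0.46 ± 0.11 (SE; 95% interval 0.21 to 0.70), a 1.37-fold ratio, and a limma adjusted p of 0.125. Without TG placebo replicate 1 the difference was 0.53 and the adjusted p from limma 0.00781, in a fit that called 17.8% of all genes (9.6% higher). Without TG placebo replicates 2 and 3 it was 0.30 (limma adjusted p = 0.461). Over all alternatives run, the adjusted p of Pvalb from limma ranged from 0.00781 to 0.524. Microglial markers differed in the same direction: 7 of 8 were above 0, beside 55.5% of all genes, and 0 of 8 were called by limma. Their summed FPKM was 235.1 to 255.3 under placebo and 307.7 to 312.2 under NM-101. The part of these cells in the Pvalb value was not tested. Pvalb lies at chr15:78191112-78206400.

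Calb2 stood at 5.34, 5.64 and 5.88 under placebo and at 4.53, 5.42 and 4.76 under NM-101. NM-101 replicates 1 and 3 lay below every placebo library and replicate 2 lay among them. The difference was -0.71 ± 0.24 (SE; 95% interval -1.28 to -0.15), a ratio of 0.609, with a limma adjusted p of 0.257. Without TG placebo replicates 2 and 3 it was -0.435 (limma adjusted p = 0.768). Of the olfactory bulb markers, all 5 tested were below 0, with 0 called by limma and 2 at an unadjusted p under 0.05, and the list median was -0.59. Calb2 is itself 1 of the 5 and 1 of these 2, and it enters the median. The other tested markers ranged from -0.06 for Synpr to -0.69 for Trh. The summed FPKM of the list, with Calb2 in the sum, was 101.8 to 155.4 under placebo and 92.1 to 120.7 under NM-101. These values are thus no separate measure of the bulb, and the bulb's part in the Calb2 value was not tested. In WT the other markers of that list ranged from Trh, at 11, 12 and 1 counts, and Eomes, at 1, 6 and 3, to Synpr, at 1874, 2230 and 2482. Calb1, in contrast, was at 5.72, 6.15 and 6.27 under placebo and 5.88, 6.30 and 6.06 under NM-101. Its groups overlapped, with a difference of 0.03 and a 95% interval from -0.33 to 0.40.

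Among the peptide genes, Npy had the largest difference. It was at 6.14, 6.40 and 6.84 under placebo and at 6.75, 7.10 and 6.94 under NM-101. Placebo replicate 3 lay inside the NM-101 range. The difference was 0.47 ± 0.18 (SE; 95% interval 0.06 to 0.88), with a limma adjusted p of 0.281. Without TG placebo replicate 1, the lowest library for Npy, it was 0.31 (limma adjusted p = 0.171). Set against that library alone, without the replicates high in nuclear RNA, it was 0.79 (limma adjusted p = 0.0425, in a fit that called 0.83% of genes, with the lone library assumed to vary like the others). Over all alternatives run, the adjusted p of Npy from limma ranged from 0.0425 to 0.661. Sst was at 8.34, 9.14 and 9.13 under placebo and at 8.94, 9.34 and 9.12 under NM-101. Placebo replicate 1 alone was low, and without it the Sst difference of 0.27 became -0.0007.

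Vip followed the same libraries as Sst, with 3.23, 4.30 and 4.45 under placebo and 3.77, 4.58 and 4.26 under NM-101. Its 95% interval ran from -0.68 to 1.10, the widest of the 10. Cck was at 8.58, 8.80 and 8.91 under placebo and at 8.91, 9.17 and 8.89 under NM-101, a difference of 0.23 (95% interval -0.04 to 0.50). It was 0.13 without TG placebo replicate 1 and 0.14 without TG NM-101 replicate 2. Transcripts of Sst, Npy and Cck are no longer than 800 bases. Over all 456 genes tested of that length, the median difference between NM-101 and placebo was 0.25 (quartiles 0.06 and 0.44). Less that median, the difference was 0.0167 for Sst, -0.0211 for Cck and 0.22 for Npy. Pvalb and Calb2 belong to the next length class, whose median was 0.09.

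**Figure D3:**
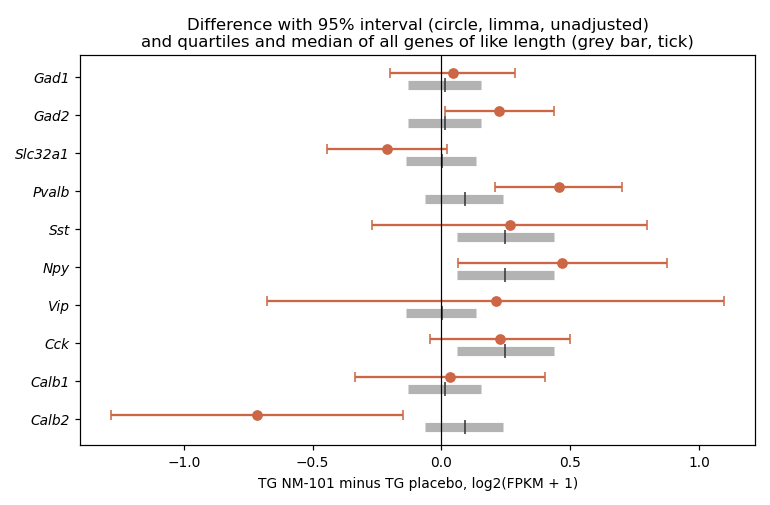
TG NM-101 minus TG placebo for each member on the log2(FPKM + 1) scale, with its 95% interval from limma, not adjusted for the number of genes. Grey bars and ticks give the quartiles and median of all tested genes in the same length class; Pvalb at 0.46 and Calb2 at -0.71 lie farthest outside them.

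Across the 6 TG libraries the members did not vary as 1 block. Vip, Calb1, Sst, Cck and Npy varied together, with Pearson correlations of 0.976 between Vip and Calb1, 0.964 between Sst and Vip, and 0.923 between Npy and Cck. These are descriptions over 6 libraries that share genotype and protocol, and TG placebo replicate 1 was the lowest library for each of these 5 genes. Gad1 went with this set (0.851 with Sst), whereas Slc32a1 had r = -0.723 with Pvalb and Gad2 had r = -0.707 with Calb2. TG placebo replicate 1 was the lowest of the 6 libraries for 7 of the 10 members, and for 23.1% of all genes tested. TG NM-101 replicate 2 was the highest for 6 members, and for 16.9% of all genes.

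TG placebo replicate 1 was lower for interneuron genes beyond the 10. Relative to the mean of the 6 libraries, its median was -0.26 for the members, -0.30 for interneuron transcription factors and -0.35 for other interneuron subtype markers. It was not lower for these genes alone: its median was -0.32 for striatal projection neurons and -0.24 for peptide receptors. Both medians were the lowest among the 6 libraries. For olfactory bulb it was at -0.20, with TG NM-101 replicates 1 and 3 lower (-0.31 and -0.29). For astrocytes it was also at -0.20, above TG placebo replicates 2 and 3 (-0.26 and -0.33). In TG placebo replicate 1, excitatory neurons of cortex and hippocampus were at -0.09 and the pan-neuronal list at 0.10. The same library was high in choroid plexus genes, whose summed FPKM ran from 31.0 to 4917.0 under placebo, and in oligodendrocyte genes, at 0.83 above the mean. WT placebo replicate 1, also high in choroid plexus and thalamic genes, had a member median of -0.05, near those of the other WT libraries (0.03 and -0.03). The part of tissue content in these values was not tested.

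**Figure D4:**
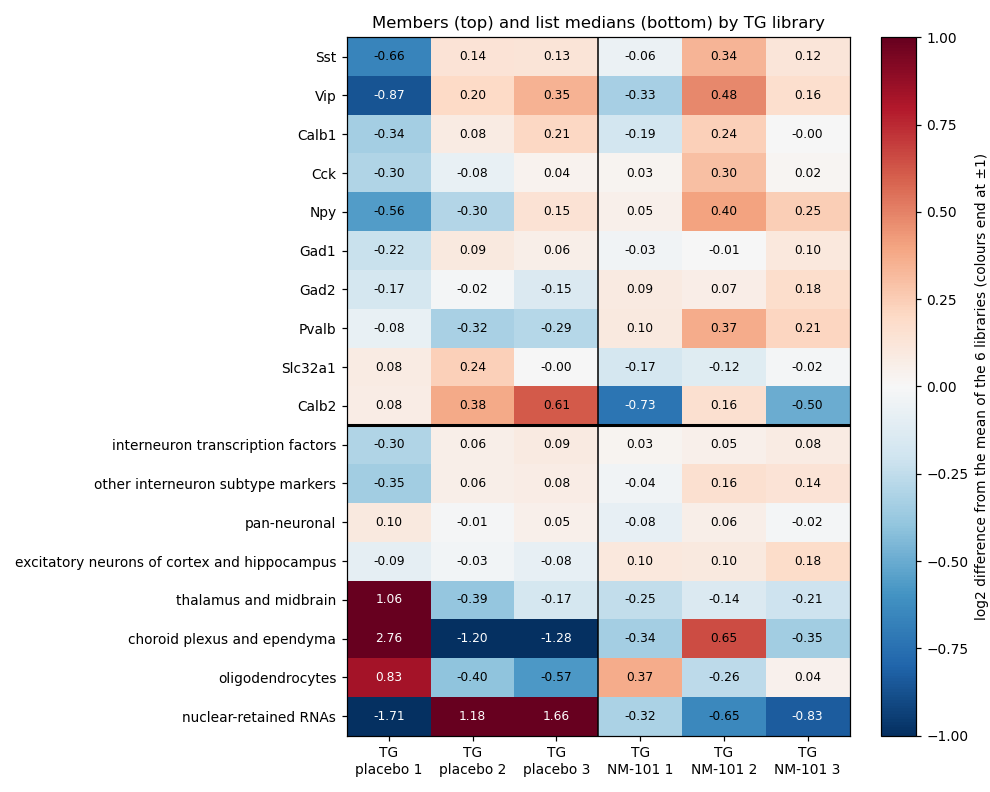
Each TG library's log2 difference from the mean of the 6, for the members (upper rows) and for list medians (lower rows). TG placebo replicate 1 is low for Vip (-0.87) and Sst (-0.66) and high for choroid plexus genes (2.76), and TG placebo replicates 2 and 3 are high in nuclear-retained RNAs (1.18 and 1.66).

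The genes nearest to each member were sought among 192 genes of the pathway and marker lists, by Pearson correlation over the same 6 libraries. The highest of 192 values over 6 libraries is high by selection, and no background was computed. TG placebo replicate 1 was the lowest library for Sst, Vip and Calb1, and also for Crhbp, Htr3a and Grp. Nearest to Sst was Crhbp, a binding protein for corticotropin-releasing hormone (0.988), and nearest to Vip was Htr3a, the serotonin receptor channel of Vip and neurogliaform cells (0.989), which was also nearest to Calb1 (0.980). Second to Vip was Grp, gastrin-releasing peptide (0.955). Npy and Cck both had Cort, the somatostatin relative cortistatin, among their nearest (0.906 and 0.952), with Map2 for Npy and Npas1 for Cck. Among the nearest to Gad1 was Nos1, the neuronal nitric oxide synthase (0.944). Slc32a1 lay nearest to Pcsk2 and Syn1, and Calb2 to Syp and Chga, genes of peptide processing, synaptic vesicles and secretory granules. Htr3a was second for Sst and Vgf second for Calb1. Pvalb lay nearest to the microglial complement genes C1qb (0.988) and C1qa (0.979), and Gad2 to the microglial receptor gene Csf1r (0.982) and to Cadps2 (0.964). All of these genes, Pvalb and Gad2 included, had NM-101 libraries above every placebo library, so these correlations also hold the difference between the groups. The part of microglia in the Gad2 value was not tested.

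The remainder of the GABA system was read from 8 lists, and 0 genes of any of them passed between NM-101 and TG placebo in limma, with 1 to 6 genes of each at an unadjusted p under 0.05. GABA receptor subunits had 13 of 14 tested members above 0, a median of 0.22, and 6 members higher at an unadjusted p under 0.05, beside 55.5% above 0 and 10.7% higher over all genes. Astrocyte markers (8 of 8 above 0, median 0.41) and microglial markers (7 of 8, median 0.36) differed in the same direction, and their part in the receptor values was not tested. Gabrb1, a beta subunit, was at 4.13 ± 0.16 and 4.64 ± 0.05, and Gabra2, an alpha subunit, at 6.09 ± 0.08 and 6.43 ± 0.14 (SD, n = 3; limma adjusted p = 0.104 and 0.188). Gabbr1, a subunit of the metabotropic receptor and the highest of the list, differed by 0.14. Genes of the inhibitory synapse scaffold had 2 of 10 above 0 and a median of -0.14. Iqsec3, a regulator of inhibitory synapses, was at 4.99 ± 0.01 and 5.42 ± 0.15 (SD, n = 3; limma adjusted p = 0.117), Nlgn2, the adhesion protein of inhibitory synapses, differed by -0.16, and Insyn1 by -0.02.

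GABA breakdown and uptake had 5 of 7 tested genes above 0 and a median of 0.10. Glul, the glutamine synthetase of astrocytes, was at 9.84 ± 0.22 and 10.35 ± 0.17 (SD, n = 3; limma adjusted p = 0.149), and Abat, which breaks GABA down, differed by 0.29. All 8 astrocyte markers were above 0 and 1 of them, Sox9, passed the test, with summed FPKM of 792.1 to 976.5 under placebo and 1139.6 to 1311.2 under NM-101, and their part in the Glul value was not tested. Peptide receptors had 2 of 10 tested genes above 0 and a median of -0.19. Npy5r, a receptor for neuropeptide Y, differed by -0.36, Sstr4, a somatostatin receptor, by 0.53, and Adcyap1r1, which binds a relative of Vip, by -0.16. Dense-core vesicle and peptide processing genes had 9 of 13 above 0, and there Cpe, the carboxypeptidase that trims peptide precursors, was at 10.63 ± 0.07 and 10.96 ± 0.12 (SD, n = 3; limma adjusted p = 0.182). Cadps2, which primes dense-core vesicles, differed by 0.56.

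Interneuron transcription factors had 10 of 15 tested genes above 0 and a median of 0.09. Sp9, a factor of developing interneurons, differed by -0.39, Satb1, which acts in maturing Sst cells, by 0.29, and Nr2f2 by -0.04. Other interneuron subtype markers had 16 of 21 above 0 and a median of 0.17. Sncg, a marker of a Cck basket cell class, was at 2.58 ± 0.34 and 3.26 ± 0.07 (SD, n = 3; limma adjusted p = 0.142), Crh, a peptide of some interneurons, differed by 0.47, and Id2 by 0.37. The perineuronal net, a matrix that surrounds Pvalb cells, had 3 of 7 tested genes above 0 and a median of -0.0043. Vcan differed by -0.35, Hapln1 by 0.27 and Bcan by -0.20.

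Against WT placebo the TG columns could only be described, since the columns were normalized separately and lengths were taken from an annotation that may not be the authors' own. Both comparisons share the WT libraries. In TG placebo, Sst stood at 8.87 ± 0.46 against 8.03 ± 0.05 in WT, Npy at 6.46 ± 0.36 against 5.79 ± 0.03, Calb1 at 6.05 ± 0.29 against 5.44 ± 0.05 and Calb2 at 5.62 ± 0.27 against 5.00 ± 0.44 (SD, n = 3). These 4 genes lay above every WT library in every TG placebo library, with differences of 0.84, 0.67, 0.61 and 0.62. The Calb2 difference was 0.37 without WT placebo replicate 1. Pvalb lay below every WT library, at 5.56 ± 0.13 against 5.99 ± 0.23 (SD, n = 3), a difference of -0.42. So 5 of 10 members did not overlap, 4 of them higher and 1 lower, beside 36.7% of 12410 genes (20.8% higher and 15.9% lower), and the median over the members was 0.16 beside 0.05 over all genes.

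The remaining 5 members overlapped the WT values, with differences of -0.13 for Gad1, -0.23 for Gad2, 0.17 for Slc32a1, -0.25 for Vip and 0.15 for Cck. Without TG placebo replicate 1, Vip turned to 0.13, Gad1 was at -0.03 and Cck at 0.24. Leaving out 1 library, Slc32a1 ranged from 0.07 (without WT placebo replicate 3) to 0.31 (without WT placebo replicate 1) and Gad2 from -0.31 to -0.14, and Cck was at 0.07 without TG placebo replicate 3. Over all 441 genes of up to 800 bases the median difference was 0.20 (quartiles -0.0059 and 0.46). Less that median, Sst was at 0.63, Npy at 0.47 and Cck at -0.06. Calb1 and Calb2, in longer classes, were at 0.57 and 0.58, and Pvalb at -0.47. An error in a member's transcript length would move all of its libraries against WT by the same amount, and was not tested.

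Under NM-101, Sst was at 9.13 ± 0.20, Npy at 6.93 ± 0.18, Calb1 at 6.08 ± 0.21 and Cck at 8.99 ± 0.16 (SD, n = 3), each above every WT library. The differences from WT were 1.10, 1.14, 0.64 and 0.37. No member lay below every WT library, so 4 of 10 did not overlap, beside 36.6% of all genes (23.5% higher and 13.1% lower), and the median over the members was 0.02 beside 0.05. Less the median of genes of up to 800 bases, which was 0.46 here, Sst was at 0.65, Npy at 0.68 and Cck at -0.08. Pvalb differed from WT by 0.03, Calb2 by -0.09, Slc32a1 by -0.04, Vip by -0.04, Gad1 by -0.08 and Gad2 by 0.0001, all with overlapping libraries. Of these 6 differences, all but that of Gad1 changed sign when 1 library was left out. Pvalb and Calb2, which stood apart from WT in TG placebo, thus overlapped it under NM-101, while Cck went from overlap to apart. For Calb2 the lowest TG placebo value was 5.34, beside a highest WT value of 5.30. The share of all genes with such a change was not computed. For Pvalb and Calb2, the test of the difference between the TG groups themselves gave the adjusted p of 0.125 and 0.257 reported above from limma.

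**Figure D5:**
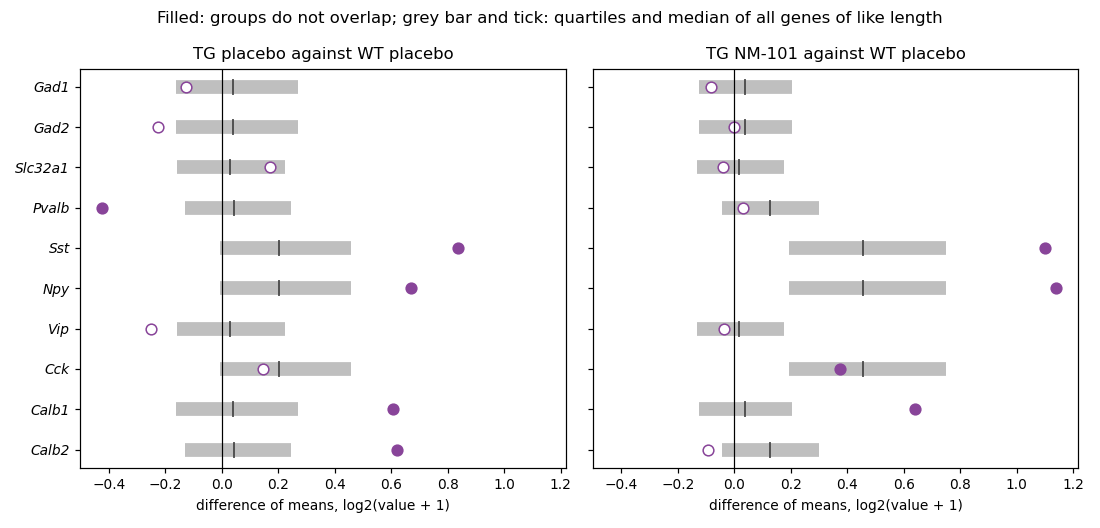
Difference of each TG group's mean from the WT mean on the log2(value + 1) scale, with no test. Filled points mark groups whose libraries do not overlap, and grey bars and ticks the quartiles and median of all genes of like length; Sst, Npy and Calb1 lie beyond the upper quartile in both panels.

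The order of the levels per length, which rests on the same scaling by length, differed somewhat from that in WT. In TG placebo Sst and Cck (8.76 ± 0.17) overlapped at the top, followed by Npy, Gad1 (6.36 ± 0.17), Calb1, Calb2 and Pvalb, each overlapping the next, and Slc32a1 (4.62 ± 0.13) and Gad2 (4.54 ± 0.08) above Vip (3.99 ± 0.66; SD, n = 3). Under NM-101 Sst and Cck again overlapped, and Npy, Gad1 (6.40 ± 0.07) and then Calb1 with Pvalb (6.02 ± 0.14) followed in separate steps. Calb2 (4.91 ± 0.46), Gad2 (4.76 ± 0.06), Slc32a1 (4.41 ± 0.08) and Vip (4.21 ± 0.41) stood lowest (SD, n = 3), in the order also seen in WT.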

How the data were processed

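Brain RNA came from an FFPE (fixed, embedded tissue) column kit and was made into QuantSeq libraries, per the labels' protocols; the submitters' processing notes name Bowtie2 and mm10. Which programs counted and normalized is not given in the sources used here. A single table of 33299 transcripts was deposited by the authors. Its 3 WT columns are whole-number counts as deposited, and its 6 TG columns are deposited log2 values. Those are read as log2(FPKM + 1) from the values alone: over 15670 transcripts they rose with WT CPM (slope 0.926) and fell with transcript length (slope -0.847). TG depth is unknown.

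Values were summed per gene symbol (RefSeq, GRCm38.p6; 32394 transcripts named) with a pseudocount of 1. The test was limma 3.58.1 (R 4.3.3; variance trend, robust) on the 12699 genes with a mean of at least 1, with Benjamini-Hochberg adjustment; the script was tested on simulated data. WT counts were divided by library total and GENCODE M21 transcript length. The members and lists were chosen with earlier results of these data known. Named genes are the members, the 2 listed genes per list with the smallest p-values, the highest of each list, and the 2 nearest genes per member, of which 1 is not reported here; Snap25, Mbp, Sox9, Drd1, Drd2, Ppp1r1b, Bcl11b, Slc17a7, Lhx6, Chat, Lhx8, Gabra6, Pcp2, Cbln1, Cbln3, Neurod1, Zic2, Trh, Eomes and Synpr were chosen after their values were seen.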

Additional observations from a re-analysis of the deposited data

How the results depend on the processing

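The count of 17 genes called between NM-101 and TG placebo became 4 with no filter on low values, 0 when genes also had to be above 0 in every sample (limma, with 1894 genes at an unadjusted p under 0.05), 4 with median-ratio scaling, 4 with plain eBayes, and 105 without TG placebo replicates 2 and 3, an alternative chosen after seeing the data. Leaving out 1 library gave from 2 to 2262 calls, 2262 without TG placebo replicate 1 and 2 to 5 without any other. With the replicate block it was 3. Over all genes tested, same-numbered libraries deviated from their group means with correlations of 0.045, -0.027 and -0.018. Of the placebo libraries only replicate 1 correlated best with its own number, so the numbers showed no pairing over all genes. Among the members, the block lowered the SE of Vip (0.37 to 0.15), Sst (0.23 to 0.14) and Calb2 (0.24 to 0.17). It also lowered that of Npy and Calb1, and raised that of Gad1, Gad2, Slc32a1, Pvalb and Cck. No member was called with it, and a pairing of the members by number was not tested.

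Leave-one-out differences changed sign for Gad1 (-0.0552 to 0.10), Sst (-0.0007 to 0.40), Vip (-0.17 to 0.44) and Calb1 (-0.13 to 0.15), and kept it for the other members, with values moved by over 1.5 times for Npy and Cck (given in the report). Of the members' alternative values between NM-101 and placebo, 5 changed sign, 2 (Pvalb and Npy, given in the report) became calls, and the others kept direction and call. Against WT, leave-one-out medians over the members were 0.11 to 0.21 for TG placebo and -0.03 to 0.14 for NM-101. With the length-class median subtracted, also chosen after seeing the data, the TG placebo median was 0.0418, and Cck under NM-101 turned to -0.0828. The cause of these changes was not tested. The lowest WT count of a member was 269, for Vip, and the spread between WT libraries was above counting error for each member but Npy.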

Other observations

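The gap per length between the transporter Slc32a1 and the enzyme Gad2 differed between the TG placebo libraries and the others. Slc32a1 minus Gad2, on the log2 scale per length, was 0.11, 0.12 and 0.003 in TG placebo replicates 1, 2 and 3, and -0.40, -0.33 and -0.34 in the TG NM-101 libraries. Every NM-101 value lay below every placebo value. In the WT libraries it was -0.19, -0.40 and -0.35. A difference within a library does not depend on how libraries are scaled to each other, but that between WT and TG columns depends on the lengths used. In TG placebo, which gene was higher also depends on the scaling by length (2797 bases for Slc32a1 and 5744 for Gad2). Before that scaling, Gad2 had more counts than Slc32a1 in every WT library (1800, 2111 and 1563 against 762, 769 and 590). This pair was chosen after its values were seen, so no test is given.

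Cort, the relative of Sst, had 61, 75 and 77 counts in WT, at 3.25, 3.15 and 3.41 on the log2(RPKM + 1) scale. It stood at 3.31, 4.38 and 4.61 in TG placebo and at 4.62, 5.07 and 4.56 under NM-101, so that TG placebo replicate 1 was again the lowest TG library, as for Sst. Cort was chosen after its values were seen, and its levels against WT carry the same limits as those of Sst.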
